A study of Mus musculus with 4 samples.

Results

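Macrophage 5 is 1 of the clusters into which the authors divided the alveolar macrophages, the resident phagocytes of the air sacs, in cells washed from mouse lungs. Its members are the cells whose deposited annotation reads Macrophage - 5 in the refined column and alveolar macrophage in the coarse column. They number 1053 of 9925 cells in all and 1053 of 7933 alveolar macrophages. In control and APM, every cell named Macrophage - 5 was also coarsely named alveolar macrophage.

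The study sequenced single cells of C57BL/6 mice in 4 groups, with the lavage of 7 mice pooled into 1 library per group. Control mice breathed filtered air and then received saline through the nose. APM mice breathed an aerosol of Afghanistan particulate matter, a mineral dust, on 12 days (6 hours daily, 5 mg/m3), followed by the same saline. HDM and HDM+APM mice breathed filtered air or APM, respectively, and then received 10 µg of house dust mite allergen through the nose in place of saline, which began 9 days after the last exposure. All 4 groups were sensitized on days 22 and 29, challenged on days 36, 37 and 38, and lavaged on day 39. No label states the age of the mice. Pooling left each group without replicates. Differences between groups could therefore not be tested, no p-value is given, and each value describes these libraries. All intervals are 95% intervals that cover counting error only.

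Alveolar macrophages clear inhaled particles, dead cells and spent surfactant, a lipid-rich film, and depend on growth factors from the epithelium for their identity. They store and export lipid and bind inhaled material through scavenger receptors. Under oxidative stress the transcription factor Nrf2 raises genes of glutathione synthesis, thioredoxin recycling and haem breakdown through a DNA sequence called the antioxidant response element.

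Macrophage 5 held 560 control cells, 464 APM cells, 17 HDM cells and 12 HDM+APM cells. These were 14.4% of control alveolar macrophages (13.3 to 15.6), 12.6% in APM (11.5 to 13.7), 8.54% in HDM (5.06 to 13.3) and 7.74% in HDM+APM (4.06 to 13.1). The control and APM intervals overlapped, which does not show that the shares were alike, and their difference was not tested. HDM and HDM+APM had under 50 such cells, and only their cell numbers are given. Some clusters were divided as evenly between the libraries, such as Macrophage 2 with 566 control and 631 APM cells, but others were not. Macrophage 1 had 1360 control and 94 APM cells, while Macrophage 4 had 21 and 1029 and Macrophage 6 had 42 and 688. Because of this, the other alveolar macrophages that Macrophage 5 is set against were not the same mix of clusters in the 2 libraries.

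Macrophage 5 cells were more deeply sampled than most. UMIs, the molecule tags that count transcripts once, summed to 2746431 over the control cells and 2109910 over the APM cells. Per cell they had a median of 4563 in control, with a lowest value of 2778, and a median of 4320.5 in APM, with a lowest value of 2606. The other alveolar macrophages had medians of 3187 and 2560, and Macrophage 1 had 2497.5 and 2366.5. The part of depth in the formation of the cluster was not tested. Mitochondrial UMIs had a median share of 3.31% in control and 2.77% in APM cells of Macrophage 5. Of 42 cell barcodes that occurred in more than 1 library, 16 were shared by control and APM, and none of these lay in Macrophage 5 of both. In all, 9 Macrophage 5 cells had a barcode found in another library.

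The name alveolar macrophage was checked against marker lists. The 10 genes with the highest fold in Macrophage 5 over the other alveolar macrophages were Rgcc, Slc39a2, Car4, Ccl6, Ccnd2, Pltp, Cd36, Acot1, Plin2 and Ch25h. Car4 and Ccl6 belong to the alveolar macrophage list, and none of the 10 belongs to the lists of 11 other cell types. Natural killer cell markers summed to 0.364 CPM (UMIs of a gene in every 1000000 UMIs of the summed cells) in control and 0.474 CPM in APM, with 5 of 6 members at 0. B cell markers summed to 35.0 and 26.5 CPM, nearly all of it Cd22 at 34.6 and 26.1 CPM, with Cd79a and Cd79b at 0 in both libraries. T cell markers summed to 218 and 191 CPM, of which Cd2 alone gave 214 and 189 CPM. Monocyte markers summed to 7645 and 7615 CPM, of which Chil3, which is also an alveolar macrophage gene, gave 7588 and 7582 CPM, with Ly6c2, F13a1 and Ifitm6 at 0. Neutrophil markers summed to 151 and 147 CPM, against 272 and 217 CPM in the other alveolar macrophages. Dendritic cell markers summed to 103 and 123 CPM, and fibroblast and endothelial markers to 51.0 and 35.5 CPM. Eosinophil and mast cell markers were higher than in the others, at 109 against 62.3 CPM in control and 104 against 85.8 CPM in APM. Most of this was Siglecf, also an alveolar macrophage gene, at 88.1 and 82.9 CPM. Ear6 gave the rest, at 20.8 against 5.50 CPM and 21.3 against 11.3 CPM, with Prg2, Ccr3 and Il5ra at 0. Genes of monocyte-derived or interstitial macrophages, 1 of the 11 lists, summed to 1963 and 2315 CPM, against 2138 and 1884 CPM in the other alveolar macrophages. That list includes Spp1, Gpnmb and Cd63, which are named below. Markers of red blood cells and epithelium were not near 0 in APM and are given below.

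The first comparison asks what sets Macrophage 5 apart from the other alveolar macrophages. Its cells were grouped on these same genes, so the differences describe the cluster and are not tested. Macrophage 8 was left out of the others because its leading genes held none of the alveolar macrophage list in earlier results. Over 8634 genes, 11 were at least 1.5-fold higher in Macrophage 5 in both libraries, 0.127% of those measured, and 57 were at least 1.5-fold lower in both, 0.66%. Folds and log2 ratios are on the (CPM + 10) scale, which understates differences of low genes, while ratios with an interval are of CPM. The median log2 ratio over all genes was 0.07 in control and -0.03 in APM. With each other cluster given equal weight, 144 genes were lower. Among cells of at least 3000 UMIs, a limit chosen after seeing the data, 60 were higher and 103 lower.

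The highest genes of Macrophage 5 included regulators of the cell cycle, a chemokine, a membrane enzyme, a zinc transporter and genes of lipid uptake and storage. Ccl6, a chemokine made by macrophages, was at 4933 CPM in Macrophage 5 and 1924 CPM in the others in control, a ratio of 2.56 (2.51 to 2.62). In APM it was at 7633 and 4106 CPM, a ratio of 1.86. Car4, a carbonic anhydrase anchored in the membrane, was at 443 against 176 CPM in control and 544 against 285 CPM in APM. Both genes were highest in Macrophage 5 among all clusters of at least 50 cells in each library. The nearest clusters differed between libraries. For Ccl6 the next was Macrophage 1 in control at 3298 CPM (3238 to 3360) and Macrophage 4 in APM at 6356 CPM (6263 to 6449). For Car4 the next was Macrophage 7 in control at 346 CPM (312 to 383) and Macrophage 4 in APM at 463 CPM (438 to 489). The lowest levels of both lay in Macrophage 3, with Ccl6 at 1051 and 1277 CPM. Ccl6 lies on chromosome 11 from 83587882 to 83593087 on the minus strand and Car4 on chromosome 11 from 84957786 to 84966044 on the plus strand of mm10, both protein-coding in GENCODE vM21.

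**Figure D1:**
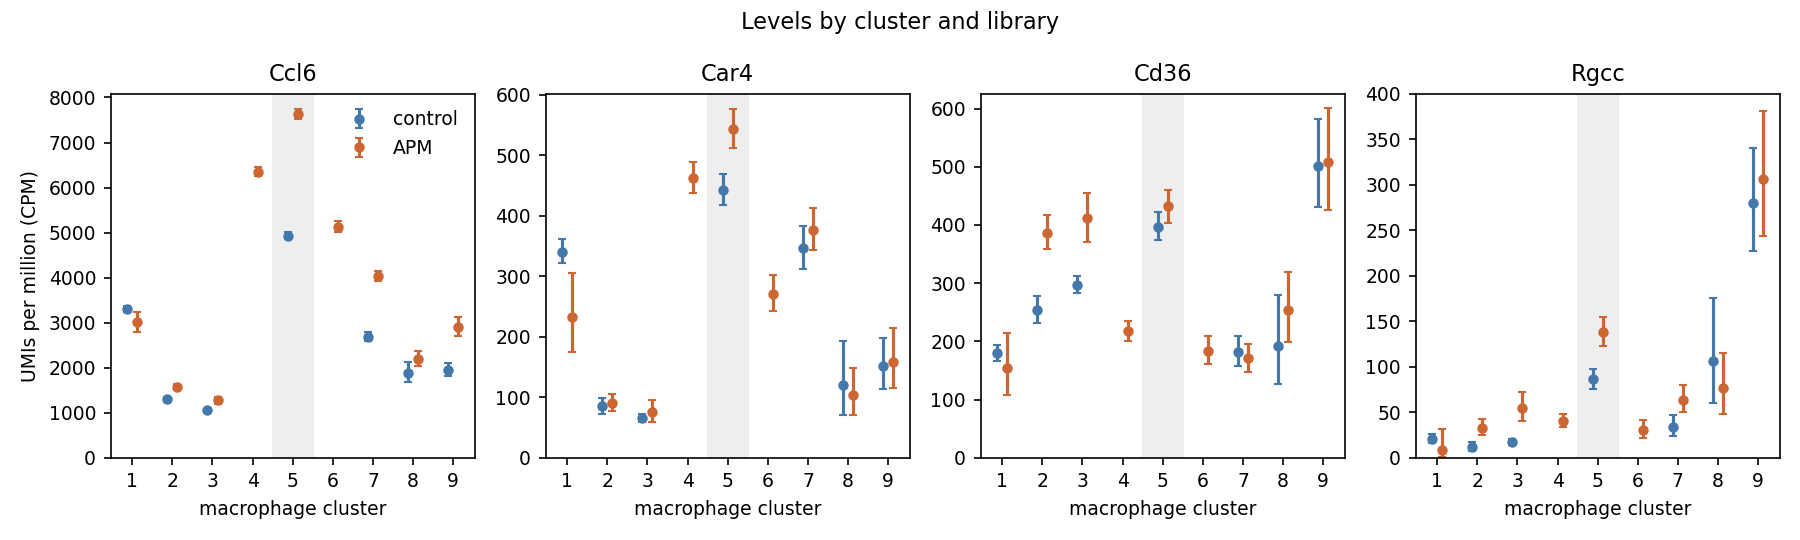
Levels of Ccl6, Car4, Cd36 and Rgcc in CPM (linear axes from 0) in each macrophage cluster with at least 50 cells in that library, control in blue and APM in orange. Bars are exact Poisson 95% intervals, for counting error only, and the grey band marks Macrophage 5, where Ccl6 is at 4933 CPM in control and 7633 CPM in APM, above the other clusters of each library.

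Single cells showed the same order with wide overlap. With every cell thinned to 1000 UMIs, Ccl6 had a median of 4 UMIs per Macrophage 5 cell in control, with the middle 80% of cells between 1 and 11, against a median of 2 (0 to 5) in the others. In APM the medians were 6 (2 to 16) and 3 (0 to 10). T cells, which should lack the gene, had a median of 1 UMI in 12 control cells and 0 in 33 APM cells at the same depth. Car4 had a UMI in 30.2% of thinned control Macrophage 5 cells and 35.1% of APM cells, against 16.7 and 20.9% of the others. Without thinning those shares were 67.1 and 67.5%, against 35.7 and 39.6%. Car4 was thus found in a minority of cells at this depth, and in 8.33 and 6.06% of T cells.

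Rgcc, a regulator of the cell cycle, was at 86.3 against 26.4 CPM in control and 138 against 49.8 CPM in APM. It was higher still in Macrophage 9, at 280 CPM (227 to 341) in control and 307 CPM (244 to 381) in APM. With the other clusters given equal weight, its log2 ratio in control was 0.22, against 1.40 with cells pooled. Slc39a2, a zinc importer, was at 99.8 against 36.1 CPM in control and 131 against 48.7 CPM in APM, higher than in every other cluster of at least 50 cells in both libraries. It overlaps Mettl17 on the same strand, as Tapbp below overlaps Zbtb22, so reads may be shared. Ccnd2, Ch25h, Pltp, Plet1, Cebpb, Slc48a1, H2-Eb1, Uqcrb and Stat5a overlap a gene on the opposite strand, and whether the counting used strand is not stated. Ccnd2, a cyclin that drives entry into the cell cycle, was at 316 against 139 CPM and at 383 against 223 CPM. In APM it was also at 330 CPM (300 to 364) in Macrophage 6 and 320 CPM (299 to 341) in Macrophage 4, close to the 383 CPM (357 to 411) of Macrophage 5.

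Genes of lipid uptake, storage and transfer included several of the cluster's highest members, while the lipid list as a whole was centred near 0. Cd36, a scavenger receptor for oxidized lipid and fatty acids, was at 397 against 252 CPM in control, a ratio of 1.58 (1.47 to 1.69), and at 432 against 269 CPM in APM, a ratio of 1.61. Macrophage 9 held more, at 502 and 508 CPM. Plin2, which coats lipid droplets, was at 775 against 519 CPM and at 873 against 578 CPM, the highest of all clusters of at least 50 cells in each library. Ch25h, the enzyme that makes 25-hydroxycholesterol, was at 80.1 against 43.1 CPM and at 102 against 66.9 CPM. Pltp, a phospholipid transfer protein, was at 59.0 against 33.1 CPM and at 49.3 against 26.7 CPM. Plin2 fell just short of 1.5-fold in control and Ch25h in APM, so neither was past it in both libraries. Of 33 lipid and cholesterol genes measured, 2 were past 1.5-fold higher in both libraries and 0 lower, where 0.127% and 0.66% of all 8634 genes were. In both libraries 13 were above and 13 below 0, and the median log2 ratios were -0.01 and 0.01.

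Alveolar macrophage identity genes lay mostly higher in Macrophage 5 than in the pooled others. Of 25, 20 were above 0 in both libraries and 1 below, with medians of 0.39 in control and 0.19 in APM. Past the fold higher in both were 2, Ccl6 and Car4, where 0.127% of all 8634 genes were. Beside Macrophage 1 the median was 0.02 in control and 0.41 in APM, and beside Macrophages 2 and 3 it lay between 0.68 and 1.00. Plet1 was at 760 against 452 CPM in control and 865 against 663 CPM in APM. Csf2rb, the shared receptor chain for granulocyte-macrophage growth factor, was at 275 against 178 CPM and at 254 against 198 CPM. Matrix remodelling genes had medians of 0.35 and 0.25, with 9 of 15 above 0 in both and 0 past the fold in both. Among them Spp1, the secreted phosphoprotein osteopontin, was at 466 against 283 CPM and at 654 against 466 CPM. Spp1 is also on the monocyte-derived or interstitial macrophage list. Of 11 genes of that list measured, 4 were above 0 in both libraries and 2 below. Past the fold in both, 0 were higher and 1 lower, where 0.127% and 0.66% of all 8634 genes were. The medians of that list were -0.08 in control and 0.26 in APM. Outside these lists, the pyruvate carrier subunit Mpc2 was at 378 against 250.1 CPM and at 455 against 320 CPM, and the survival gene Bcl2a1d at 202 against 143 CPM and 328 against 233 CPM. Bcl2a1d and Bcl2a1b are close copies, between which reads can be misassigned.

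**Figure D2:**
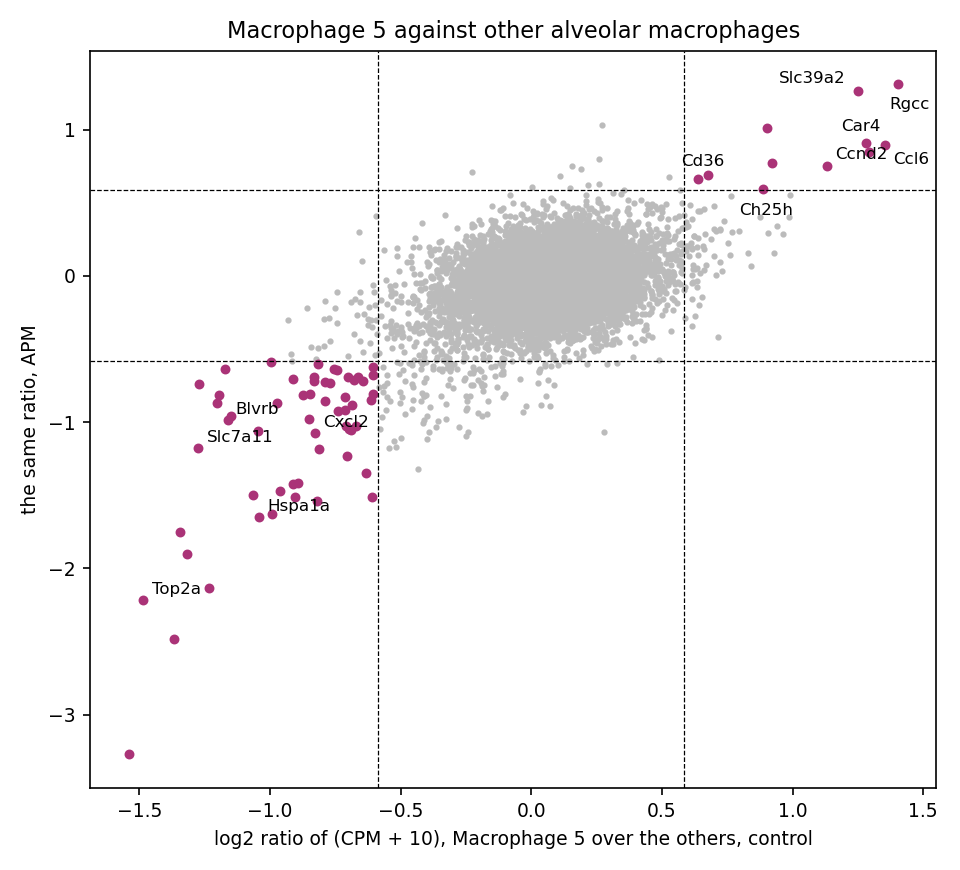
Each point is 1 of 8634 genes, placed by its log2 ratio of (CPM + 10) in Macrophage 5 over the other alveolar macrophages in control (x axis) and APM (y axis). Dashed lines mark 1.5-fold, and the purple genes, 11 in the upper right and 57 in the lower left, lie past them in both libraries.

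Genes of the oxidative stress response lay low as a group. Of 21 measured, 6 were past 1.5-fold lower in both libraries and 0 higher, where 0.66% of all 8634 genes were past it lower. Of the 21, 20 were below 0 in both, and the median log2 ratio was -0.64 in control and -0.35 in APM. Slc7a11, the cystine importer that feeds glutathione synthesis, was at 147 against 369 CPM in control, a log2 ratio of -1.27, and at 81.5 against 197 CPM in APM, a log2 ratio of -1.18. Blvrb, which reduces biliverdin in haem breakdown, was at 257 against 589 CPM and at 193 against 394 CPM. Cat, the catalase that destroys hydrogen peroxide, was at 255 against 468 CPM and at 164 against 333 CPM. Hmox1, the enzyme that opens haem, was at 1509 against 2399 CPM and at 866 against 1403 CPM. Gclm, a subunit of the enzyme that starts glutathione synthesis, was at 119 against 302 CPM and at 137 against 235 CPM. The scavenging enzyme Prdx1 was at 3579 against 6769 CPM in control and 3431 against 5131 CPM in APM, with log2 ratios of -0.92 and -0.58.

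This difference depended on which cluster Macrophage 5 was set beside. By the correlation across 7034 genes, computed for the 6 clusters with at least 50 cells in both libraries, those most like Macrophage 5 were Macrophage 1 (r = 0.980), Macrophage 2 (r = 0.975) and Macrophage 3 (r = 0.966). Macrophages 4, 6 and 10 were not among the 6, while Macrophage 8, left out of the pooled others, was. Over 19 stress genes measured against all 3, 19 were below 0 in both libraries against Macrophage 2, 16 of them past 1.5-fold, where 1.47% of all 6139 genes were past it lower in both. Against Macrophage 3, 19 were below 0, 13 of them past 1.5-fold, where 2.38% of all 5493 genes were. Against Macrophage 1, 2 were below 0 in both libraries and 11 above. Prdx1 was at 7814 CPM in Macrophage 2 and 9457 CPM in Macrophage 3 of the control library, but at 3066 CPM in Macrophage 1. Slc7a11 had a ratio to Macrophage 1 of 1.90 in control (1.62 to 2.22), and to Macrophage 3 of 0.256 (0.230 to 0.284). Macrophage 5 thus shared low levels of these genes with Macrophage 1 and lay below Macrophages 2 and 3.

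**Figure D3:**
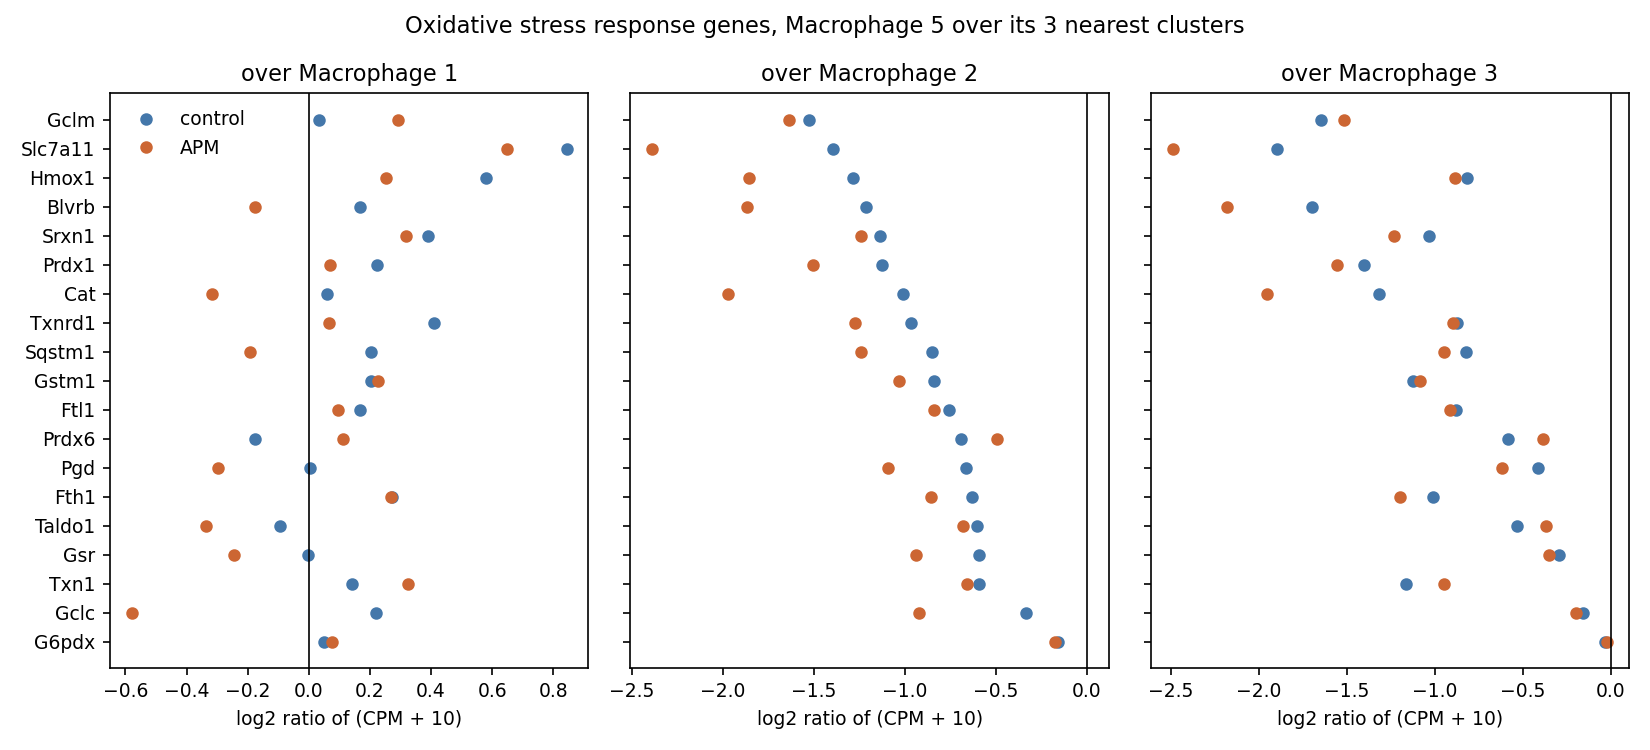
Log2 ratio of (CPM + 10) of 19 oxidative stress response genes in Macrophage 5 over Macrophages 1, 2 and 3, control in blue and APM in orange. Against Macrophage 1, 3 of 19 genes lie below 0 in control (median 0.17) and 7 in APM (median 0.08). Against Macrophages 2 and 3, all 19 genes lie below 0 in both libraries.

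The promoters of the stress list were read for the antioxidant response element. The list was made of genes of the Nrf2 response, so its share of matches describes the list and not Macrophage 5. The motif searched was TGACNNNGC on either strand, whose reverse reads GCNNNGTCA, in the 300 bases of RefSeq promoters on GRCm38.p6 that run from 250 bases before to 50 after each start. It was found for 8 of the 19 list genes with a promoter in the table (42.1%), and for 3781 of 27025 genes with one in all (13.99%). Hmox1, Gclc, Prdx6 and Gsr had no promoter there and were not read. Each stretch below is on the strand of its gene, 5′ to 3′, with the match in capitals. The 5 shown are all matches of the list that lie, with 15 bases on either side, before the start.
Gclm, chr3:122245408-122245446, plus strand: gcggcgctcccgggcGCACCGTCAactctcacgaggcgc
Prdx1, chr4:116685451-116685489, plus strand: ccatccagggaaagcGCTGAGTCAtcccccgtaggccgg
Txnrd1, chr10:82859099-82859137, plus strand: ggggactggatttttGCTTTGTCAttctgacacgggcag
Gsta3, chr1:21240449-21240487, plus strand: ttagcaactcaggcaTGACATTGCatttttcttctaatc
G6pdx, chrX:74428914-74428952, minus strand: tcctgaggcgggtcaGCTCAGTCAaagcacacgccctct

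The match in Gclm begins 134 bases before the start, that in Prdx1 133 and that in Txnrd1 92. The Prdx1 match also holds TGANTCA, the core of the AP-1 site. Gclm and Prdx1 were past or near the fold, as given above, and Txnrd1, a thioredoxin reductase, was at 198 against 304 CPM in control and 166 against 222 CPM in APM. G6pdx, which supplies NADPH, holds a match and was at 80.5 against 80.9 CPM and at 65.4 against 58.8 CPM. Gsta3 had too few UMIs to be measured. Slc7a11, Blvrb and Cat had no match in this window, which says only that these letters are not there.

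Genes of the cell cycle were low in Macrophage 5 beside the pooled others, among which Macrophages 7 and 10 held the dividing cells in earlier results. Of 30 cell cycle genes, 12 were past 1.5-fold lower in both libraries and 0 higher, with medians of -0.50 and -0.93. Among all 8634 genes, 0.66% were past it lower in both. Top2a, which untangles DNA in dividing cells, was at 14.9 against 59.8 CPM in control and 9.95 against 83.0 CPM in APM. In Macrophage 7 it was at 521 and 519.5 CPM. Stmn1, a microtubule regulator of division, was at 81.2 against 171 CPM and at 87.7 against 292 CPM. Without Macrophages 7 and 10 in the others, the control median was 0.27 over 21 genes, while the APM median did not cross 0. The count of all genes past 1.5-fold lower was 34 in place of 57. Stmn1 then lay on the other side of 0, at 0.12 and 0.33.

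Heat shock, interferon and inflammatory genes gave further low members beside the pooled others, but not beside every cluster. Hspa1a, an inducible chaperone, was at 121 against 260 CPM in control and 67.3 against 233 CPM in APM, and its close copy Hspa1b at 56.8 against 116 CPM and 32.7 against 104 CPM. In control both were higher in Macrophage 5 than in each of Macrophages 1, 2 and 3, Hspa1a with ratios of 1.52, 1.31 and 1.55 and Hspa1b with ratios of 1.46, 1.71 and 1.60. In APM the ratios of Hspa1a were 0.665, 1.03 and 1.43. Of 23 immediate early and heat shock genes, 2 were past the fold lower in both libraries, and the medians were 0.14 and -0.10. Of 17 interferon response genes, 4 were past the fold lower and 0 higher, where 0.66% of all 8634 genes were past it lower. All were at low levels, such as Isg15, an antiviral ubiquitin-like protein, at 4.01 against 15.7 CPM and 6.16 against 18.4 CPM. The neutrophil attractant Cxcl2 was at 42.2 against 82.8 CPM and at 18.5 against 50.1 CPM. The lectin receptors Clec4d and Clec4e, which sense fungal and mycobacterial glycolipid, were lower too, Clec4d at 75.7 against 186 CPM and 56.4 against 107 CPM, and Clec4e at 108 against 191 CPM and 60.2 against 107 CPM. Beside Macrophage 1 in control, Cxcl2 had a ratio of 2.16 (1.59 to 2.96) and Clec4e of 1.88 (1.57 to 2.27), so these were not lower there. Slc11a1, a metal exporter of the phagosome, was at 17.8 against 44.7 CPM and 5.69 against 18.7 CPM. The iron exporter Slc40a1 was at 23.3 against 49.2 CPM and 11.4 against 25.2 CPM. Their control ratios to Macrophage 1 were 1.80 (1.14 to 2.87) for Slc11a1 and 1.19 (0.833 to 1.70) for Slc40a1. In APM that of Slc40a1 was 0.517 (0.194 to 1.74), and Slc11a1 had no UMI in Macrophage 1.

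Set beside Macrophage 1 alone, the most similar of the 6 clusters compared, few genes were past the fold. Of 4849 genes, 23 were at least 1.5-fold higher in Macrophage 5 in both libraries (0.474%) and 9 lower (0.186%). Beside Macrophage 2 the higher genes were 183 (2.98%) and the lower 90 of 6139, and beside Macrophage 3 the higher were 387 of 5493 (7.05%). The genes named next were picked after their values were seen. Gpnmb, a lysosomal glycoprotein of lipid-laden macrophages, was at 471 against 254 CPM in control and 410.4 against 180.3 CPM in APM. Igf1, the insulin-like growth factor, was at 54.6 against 22.2 CPM and 53.1 against 22.0 CPM, and the stress cytokine Gdf15 at 94.7 against 41.7 CPM and 77.7 against 35.2 CPM. Among the lower genes, Txnip, a thioredoxin inhibitor, was at 660 against 1036 CPM and at 457 against 774 CPM. H2-Eb1, a class II antigen-presenting chain, was at 114 against 185 CPM and at 76.3 against 251 CPM. The APM side of this comparison rests on 94 Macrophage 1 cells.

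The second comparison asks how Macrophage 5 differed with APM. Of 7034 genes measured in it, 82 were at least 1.5-fold higher in APM (1.17%) and 226 at least 1.5-fold lower (3.21%), and the median log2 ratio over all genes was -0.09. That balance rested on the scaling. With libraries scaled by the median ratio of genes in place of total UMIs, 142 were higher and 111 lower, and the median over all genes was then 0. Of the 82 higher genes, 25 lay above the ratio in all 6 other clusters with at least 50 cells in both libraries, and of the 226 lower genes 88 lay below them all. Over all 7034 genes, 408 lay above and 560 below. These places were not tested.

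The largest ratios belonged to haemoglobin and secretory genes that mark red blood cells and epithelium. Hba-a1 was at 1603 CPM in APM against 47.0 in control, a ratio of 34.1 (28.6 to 41.0), and Hbb-bs at 3146 against 133 CPM, a ratio of 23.7 (21.3 to 26.4). Hba-a1 and Hba-a2, and Hbb-bs and Hbb-bt, are close copies. The 8 red blood cell markers summed to 6372 CPM in APM Macrophage 5 against 250.1 CPM in control, with Slc4a1 at 0 in both. Across all clusters of the APM library the same sum ranged from 3412 to 21540 CPM, and across those of control from 194 to 377 CPM. In APM Macrophage 5 every cell had at least 1 such UMI, the median cell had 15 and 1 cell had 2985, and the 10 richest cells held 49.5% of them. Without the 4 cells that had 100 or more, the counts of genes were 80 higher and 220 lower. The club cell protein Scgb1a1 was at 1032 against 161 CPM and the surfactant gene Sftpc at 141 against 28.8 CPM. Of 7 measured epithelial markers, 6 were past the fold higher, where 1.17% of all 7034 genes were. The median of these markers was 2.00, inside the range of the other clusters (1.38 to 2.54). Their sum was 2046 against 414 CPM, with 2 of 17 members at 0 in APM and 4 of 17 in control. Without both marker lists, 72 genes were higher and 226 lower.

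Among genes that macrophages express, those higher in APM included a transcription factor and the cluster's leading chemokine. Cebpb, a transcription factor of macrophage activation and growth factor response, was at 1966 against 877 CPM, a ratio of 2.24 (2.13 to 2.36). It was found in 84.7% of APM and 58.2% of control cells thinned to 1000 UMIs, and in 27.3% of 33 and 16.7% of 12 T cells. Its log2 ratio of 1.16 lay inside the range of the other clusters (0.69 to 1.60). Ccl6 was at 7633 against 4933 CPM, with a ratio of 1.55 (1.51 to 1.58), and its log2 ratio of 0.63 lay above the other clusters (-0.13 to 0.59). Car4, at 544 against 443 CPM, had a ratio of 1.23 (1.13 to 1.33), short of the fold, and its log2 ratio of 0.29 also lay above the others (-0.53 to 0.18). Both lead the cluster, so cells were sorted into it partly by these levels.

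Other macrophage genes higher in APM were a mixed set of secreted and surface proteins. Wfdc17, a small secreted protein of activated macrophages, was at 484 against 213 CPM, a ratio of 2.27 (2.05 to 2.52), inside the range of the other clusters. Lgals3, a galactose-binding lectin, was at 3478 against 2264 CPM, and its log2 ratio of 0.62 lay above the others (-0.09 to 0.45). Fabp1, a fatty acid binding protein, was at 487 against 311 CPM, with a ratio of 1.56 (1.43 to 1.71), and its log2 ratio of 0.63 lay above the others (-0.66 to 0.46). The tetraspanin Cd63 was at 774 against 511 CPM, Bcl2a1d at 328 against 202 CPM and the complement factor gene Cfb at 54.5 against 27.3 CPM. Ccl9, a chemokine related to Ccl6, was at 67.3 against 37.5 CPM, and Ccl17, which attracts lymphocytes, at 29.4 against 11.3 CPM. Of 8 chemokines measured 3 were past the fold higher and 1, Cxcl2, lower, at 18.5 against 42.2 CPM. Of 10 genes of monocyte-derived or interstitial macrophages, Cd63 among them, 3 were past the fold higher and 0 lower. In that list 4 lay above 0 and 6 below, with a median of -0.15. Among all 7034 genes, 1.17% were past the fold higher and 3.21% lower. Chil3, a chitinase-like protein abundant in these cells, was at 7582 against 7588 CPM, a ratio of 0.999 (0.979 to 1.02).

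Stress response and metal handling genes were lower in APM. Of 19 oxidative stress genes measured, 5 were past 1.5-fold lower and 0 higher, 16 lay below 0 and the median was -0.26. Among all 7034 genes, 3.21% were past it lower and 1.17% higher, with a median of -0.09. Hmox1 was at 866 against 1509 CPM, with a ratio of 0.574 (0.543 to 0.606), and had a UMI in 33.0% of thinned APM cells against 55.7% in control (70.9 and 93.6% without thinning). In T cells, given here for comparison and not as cells known to lack Hmox1 or Mt2, the thinned shares of Hmox1 were 12.1% of 33 and 50% of 12 cells. The latter had an interval of 21.1 to 78.9%. The mean was 1.45 UMIs in thinned control Macrophage 5 cells and 0.583 in the control T cells, and 0.894 and 0.121 in APM. The autophagy adaptor Sqstm1 was at 268 against 469 CPM, Slc7a11 at 81.5 against 147 CPM and Cat at 164 against 255 CPM. Slc7a11 and Cat lay below the ratios of all other clusters and Hmox1 and Sqstm1 inside their range. The list median lay inside the other clusters' range of -0.40 to 0.07. Mt2, a metallothionein that binds zinc and copper, was at 1957 against 3350 CPM. Its median per thinned cell was 1 UMI in APM and 2 in control, and T cells were at 0 and 0.5. Of 14 metal and iron genes, 5 were past the fold lower and 1 higher. Slc48a1, which carries haem out of the lysosome, was at 113 against 206 CPM, with a log2 ratio of -0.82 below all other clusters (-0.56 to -0.09).

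Most antigen presentation and lysosome genes had ratios below 0, and few were past the fold. The median over all 7034 genes was also below 0, at -0.09, and 3.21% of them were past the fold lower. Of 7 class II genes, 2 were past the fold lower, H2-Aa at 215 against 341 CPM and H2-Ab1 at 170.2 against 280.0 CPM. The class II median was -0.41, inside the wide range of the other clusters (-0.58 to 0.42), whose upper end was Macrophage 8. In the class I pathway, Tapbp, which helps load peptides, was at 112 against 201 CPM, below all other clusters, and H2-K1 at 649 against 982 CPM. Of 31 lysosome genes 28 were below 0, but 1 was past the fold lower, Psap, the precursor of the saposins that aid lipid breakdown, at 4611 against 7466 CPM. The other gene past the fold, Cd63, was higher. The lysosome median was -0.28 and lay inside the other clusters' range of -0.32 to 0.03. Under median-ratio scaling the lysosome median was -0.17 and the stress median -0.15.

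The lowest genes of APM against control had varied roles. The nuclear envelope protein Sun2 was at 22.8 against 57.2 CPM, the amino acid transporter Slc43a2 at 46.0 against 96.1 CPM and Calu, a calcium-binding protein of the secretory pathway, at 52.1 against 105 CPM. Elmo2, an engulfment adaptor, was at 28.0 against 59.7 CPM. Calu and Elmo2 lay below all other clusters. The lysosomal sulfatase Ids was at 43.6 against 87.4 CPM. In the growth factor list, Stat5a, a signal carrier of the granulocyte-macrophage growth factor receptor, was at 21.3 against 48.4 CPM, also below all other clusters. The DNA licensing gene Mcm6 was at 10.9 against 34.2 CPM, with Mcm3 at 22.3 against 40.4 CPM. Past the fold lower were 3 of 15 cell cycle genes, where 3.21% of all 7034 genes were.

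**Figure D4:**
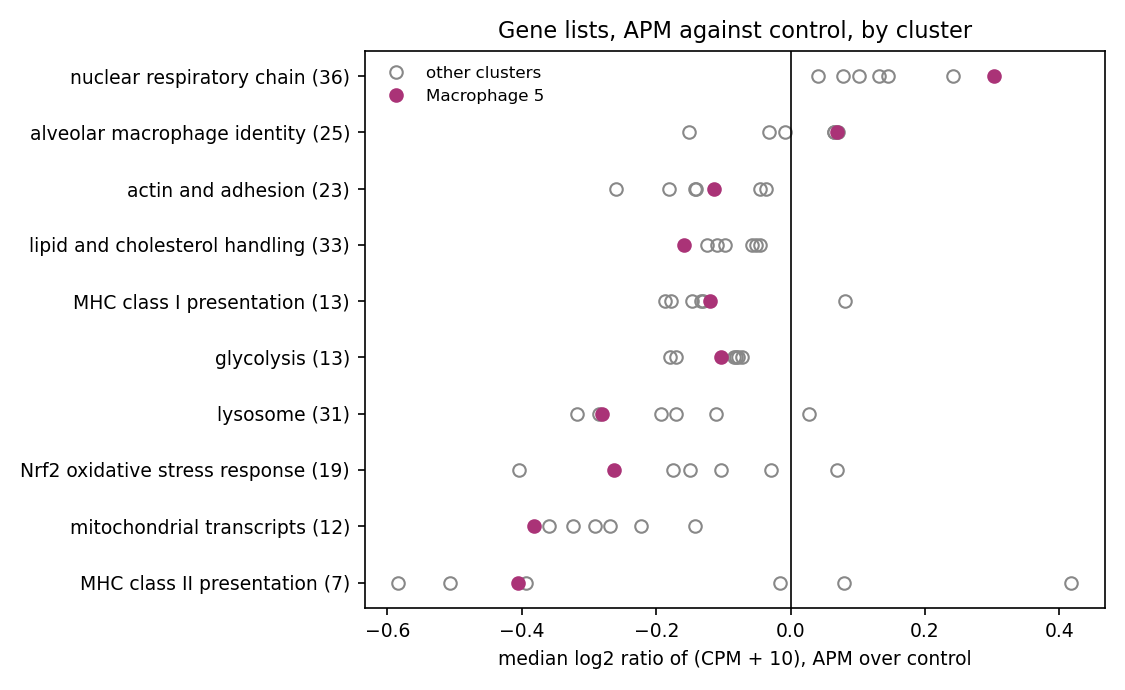
Median log2 ratio of (CPM + 10), APM over control, of gene lists (number of members in brackets) in Macrophage 5 (purple) and in the 6 other clusters with at least 50 cells in both libraries (open circles). The 6 include Macrophage 8. Macrophage 5 lies farthest right for nuclear respiratory chain genes, at 0.30, and farthest left for mitochondrial transcripts, at -0.38. It also lies farthest left for lipid and cholesterol genes, at -0.16.

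Respiratory chain genes split by the genome that encodes them. The chain is built from subunits of both the nuclear and the mitochondrial genome. Of 36 nuclear genes, 33 were above 0 and 3 below, with a median of 0.30 against -0.09 over all genes. However, 1 of them, Uqcrb, was past the fold higher, where 1.17% of all 7034 genes were. The summed level of the 36 nuclear genes was 20738 CPM in APM and 17065 CPM in control. Uqcrb, a subunit of complex III, was at 626 against 397 CPM, a ratio of 1.58 (1.45 to 1.71). Ndufa13 of complex I was at 446 against 317 CPM, Cycs, the electron carrier cytochrome c, at 333 against 238 CPM and Cox6b1 of complex IV at 1183 against 849 CPM. Ndufa13 overlaps another gene on the same strand, so reads may be shared. Ndufa13, Cycs and Cox6b1 lay above all other clusters. The 3 below 0 were Sdha, at -0.27, Uqcrc2 and Atp5e. All 12 mitochondrial transcripts measured were below 0, with a median of -0.38. Past the fold were 2, mt-Nd3 at 329 against 572 CPM and mt-Nd2 at 873 against 1438 CPM. Of all 7034 genes, 3.21% were past it lower. The summed level of the 12 mitochondrial transcripts was 29333 CPM in APM and 36967 CPM in control.

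Both medians lay just outside those of the other clusters, 0.04 to 0.24 for nuclear and -0.36 to -0.14 for mitochondrial genes. So did those of lipid and cholesterol genes, at -0.16 (others -0.12 to -0.045), and of alternative activation genes, at -0.001 (others -0.26 to -0.036). Under all alternatives run, the nuclear median lay between 0.25 and 0.41 and the mitochondrial between -0.40 and -0.27. Ribosomal protein genes, short and abundant transcripts looked at after these values were seen, took 16.4% of UMIs in APM Macrophage 5 and 15.2% in control. Of 95 of them 70 were above 0, with a median of 0.11. Their part in the nuclear value was not tested.

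**Figure D5:**
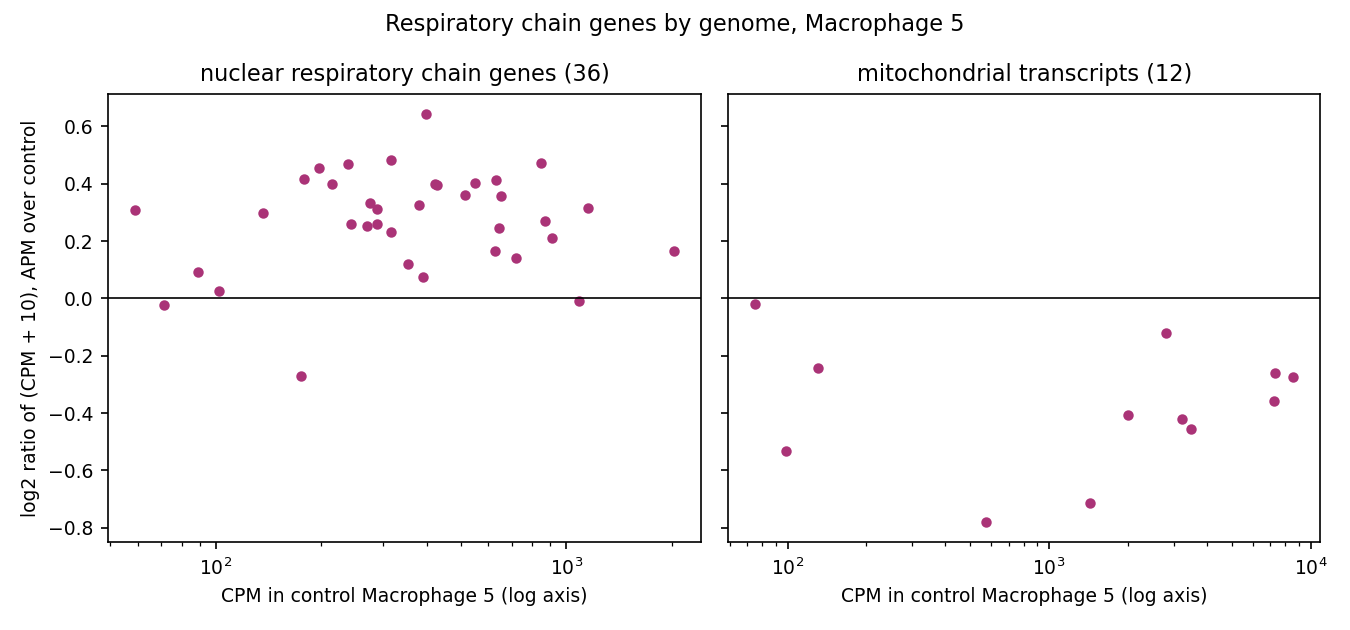
Log2 ratio of (CPM + 10), APM over control, in Macrophage 5 against the CPM in control (log axis) for 36 nuclear respiratory chain genes (left) and 12 mitochondrial transcripts (right). Nuclear genes lie between -0.27 and 0.64, with 33 of 36 above 0, and mitochondrial transcripts between -0.78 and -0.02, all below 0.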

How the data were processed

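Per the labels, libraries came from the 10x Genomics 3' v2 chemistry. Cell Ranger 2.2.0, Seurat 2.3.4 and mm10 stand in the submitters' processing notes without roles. The authors deposited raw UMI counts, not normalized, of 13838 genes with a table of each cell's library and type. Cell filters and doublet treatment were not given in the sources used, and no cell was removed. All samples in the table were used as labelled.

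For each class and library, UMIs of its cells were added up and scaled to CPM. Genes needed 50 UMIs in the classes compared, in each library for the first comparison and over both for the second. Log2 ratios used a pseudocount of 10 CPM. Intervals are exact conditional binomial for ratios, exact Poisson for CPM and exact (Clopper-Pearson) for shares, at 95%. With no test, genes were counted past 1.5-fold, and lists with under 5 measured members were given no median. The members and lists were chosen with earlier results of these data known. Named genes are the 12 highest and 12 lowest of at least 50 CPM in each comparison, for each list up to 4 members of largest absolute log2 ratio, the given markers Ccl6 and Car4, and defining markers of other cell types; stress list members with a promoter match and other respiratory chain genes are named with their lists. GENCODE vM21 matched 13373 symbols to exactly 1 gene. The code was checked on simulated data. Python 3.11.15, numpy 2.4.6, scipy 1.17.1 and pandas 2.3.3 were used. Some items are not reported here.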

Additional observations from a re-analysis of the deposited data

How the results depend on the processing

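No paired analysis was possible because each group is 1 pooled library. Shares of Macrophage 5 kept within their intervals under all 3 alternatives, and the 3 most similar clusters were the same by Spearman correlation. In the comparison with the other alveolar macrophages (11 higher, 57 lower), a pseudocount of 1 CPM gave 25 and 159, one of 50 CPM gave 5 and 12, and a fold of 2 gave 2 and 10. The lower genes numbered 35 with at least 200 UMIs, 37 by the mean over cells, 144 with equal cluster weights and 34 without Macrophages 7 and 10. In APM against control (82 higher, 226 lower), a pseudocount of 1 CPM gave 188 and 641, one of 50 CPM gave 24 and 11, a minimum of 200 UMIs gave 48 and 84, median-ratio scaling gave 142 and 111, and a fold of 2 gave 18 and 6.

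Some alternatives were chosen after seeing the data. In cells of at least 3000 UMIs the first comparison gave 60 higher and 103 lower. That limit left 248 of 1360 control Macrophage 1 cells and 14 of 94 APM ones, so the others were a different mix. Without cells rich in red cell UMIs, the APM ratio of Macrophage 5 to the others for red cell markers was -0.13 in the median and -0.10 for Hbb-bt, on the other side of 0.

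Without Macrophages 7 and 10, control ratios crossed 0 for the cell cycle median (0.27), 2810417H13Rik (0.48), Hist1h2ap (0.011) and Stmn1 (0.12), and APM ratios for Stmn1 (0.33) and Rrm1 (0.24). In cells thinned to 1000 UMIs, Hspa1b in APM against control was 0.033. The cause was not tested. Of 7199 single-gene values under alternatives, 6233 stayed within their counting interval, 959 moved outside it without crossing 0 from past the fold and 7 crossed. Genes under 50 UMIs in the classes compared were too shallow to be measured.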
